A study of Mus musculus with 24 samples.

Results

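The genes described here are 33 genes of the NRF2 pathway, of glutathione metabolism and of antioxidant defence in AML-12 cells. They were chosen by symbol, from a fixed list, out of the 55487 genes of the count table. All 33 were in the table. RNA was measured in 24 libraries, with 4 libraries in each of 6 groups. The BSA group was given only the albumin carrier, and the PAL group 0.25 mM palmitate, the saturated fatty acid with which steatosis was modelled. Neither was transfected. CON, BMAL1, CHREBP and BOTH cells received 0.25 mM palmitate plus endoribonuclease-prepared siRNA (esiRNA), and were collected 24 hours after transfection. CON received 200 nM of esiRNA against *Egfp*, a sequence that mouse cells lack. The dose was 100 nM for *Bmal1* esiRNA alone (BMAL1) and for *Chrebp* esiRNA alone (CHREBP), and 200 nM in total for the pair (BOTH). Of these groups, CON and BOTH thus shared a total dose, and BMAL1 and CHREBP another. Dose cannot be told apart from the esiRNA target where a single silencing is compared with CON or with BOTH, or in the interaction. The study's methods give medium without dexamethasone and with charcoal-stripped serum for the steatosis model. They do not state the medium of the BSA group. AML-12 is an established line of mouse hepatocytes that came from a mouse carrying a transforming growth factor alpha transgene, so all groups share that origin. Nothing in the labels says that the 4 libraries of a group came from separate cultures. Adjusted p-values therefore measure the spread between these libraries, which may be technical.

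NRF2, the product of *Nfe2l2*, is a transcription factor that binds antioxidant response elements (AREs) and drives genes for glutathione synthesis, thioredoxin recycling, conjugation of electrophiles and iron storage. KEAP1 is the adaptor that marks NRF2 for degradation, and oxidants and electrophiles block it by modifying its cysteines. NRF2 is thus controlled largely through the stability of its protein, which RNA counts do not measure. The liver is rich in glutathione transferases, which couple glutathione to drugs and to products of lipid peroxidation. Catalase and the superoxide dismutases remove reactive oxygen species and are only in part under NRF2 control.

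Libraries held 5399700 to 11237474 gene counts, and 3 counts, taken as the floor of detection, correspond to 0.267 to 0.556 CPM. By the labels, the libraries stood in 3 columns, column 1 with BSA above PAL, column 2 with CON above BMAL1 and column 3 with CHREBP above BOTH. The upper group of a column took rows A to D, the lower one rows E to H. *Chrebp* esiRNA and column cannot be told apart when CHREBP or BOTH is compared with CON or BMAL1, nor can transfection and column in CON against PAL. Row position cannot be told apart from palmitate in PAL against BSA, nor from *Bmal1* esiRNA where BMAL1 is set against CON or BOTH against CHREBP. Row also differed between CON and PAL, along with transfection and column, and between BOTH and CON, along with both esiRNAs and column. All 7 hepatocyte markers examined were detected, although *Apoa1* had only 2 to 15 counts per library and *Alb* 86 to 242. The markers of other liver cells were low. Of 4 macrophage markers, *Adgre1* and *Clec4f* were at 0 in all libraries, *Ptprc* reached 8 counts and *Cd68* had 5 to 27. Of 4 stellate cell or fibroblast markers, *Lrat* was at 0, *Col1a1* had 1 to 10 counts, *Des* up to 15 and *Acta2* up to 4. Of 3 endothelial markers, *Cdh5* and *Kdr* were at 0 and *Pecam1* reached 7 counts. By contrast, the cholangiocyte keratins *Krt19* (1541 to 4154 counts) and *Krt7* (223 to 634 counts) were present with *Epcam* at 2 counts or fewer. In CON, BMAL1, CHREBP and BOTH, in that order, the mean normalized count of *Bmal1* (listed as *Arntl*) was 44.7, 26.0, 35.4 and 22.8, and that of *Chrebp* (listed as *Mlxipl*) was 35.6, 35.2, 25.9 and 17.0.

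Of the 33 genes, 29 had at least 25 counts in some library. The other 4, which are *Nqo1*, *Hmox1*, *Gsta1* and *Gsta2*, stayed under 25 counts in every library. *Nqo1*, the quinone reductase most often used to read out NRF2 activity, had 19, 3, 2 and 13 counts in the BSA libraries and 2 to 5 in PAL. Among the esiRNA groups it ranged from 1 to 6 (CON), 0 to 5 (BMAL1), 0 to 6 (CHREBP) and 0 to 4 (BOTH). The 2 higher BSA libraries stood above every palmitate library and the 2 lower ones did not, and the DESeq2 *Padj* of PAL against BSA was 0.330. *Hmox1*, heme oxygenase 1, had 0 to 3 counts in BSA and CON, at most 1 in PAL, at most 2 in BMAL1, 1 to 3 in CHREBP and 0, 4, 1 and 6 in BOTH. It was at or under the floor of 3 counts in all but 2 libraries, both of them in BOTH. *Gsta2* had 0 to 12 counts per library. For *Nqo1*, *Hmox1* and *Gsta2*, differences between groups were not detectable at this depth. The alpha-class transferases *Gsta1* and *Gsta2* are also close copies of each other: 82.1% and 47.0% of the 50-base words in the last 300 bases of their transcripts occur in transcripts of another gene, so how reads were divided between them is uncertain.

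**Figure D1:**
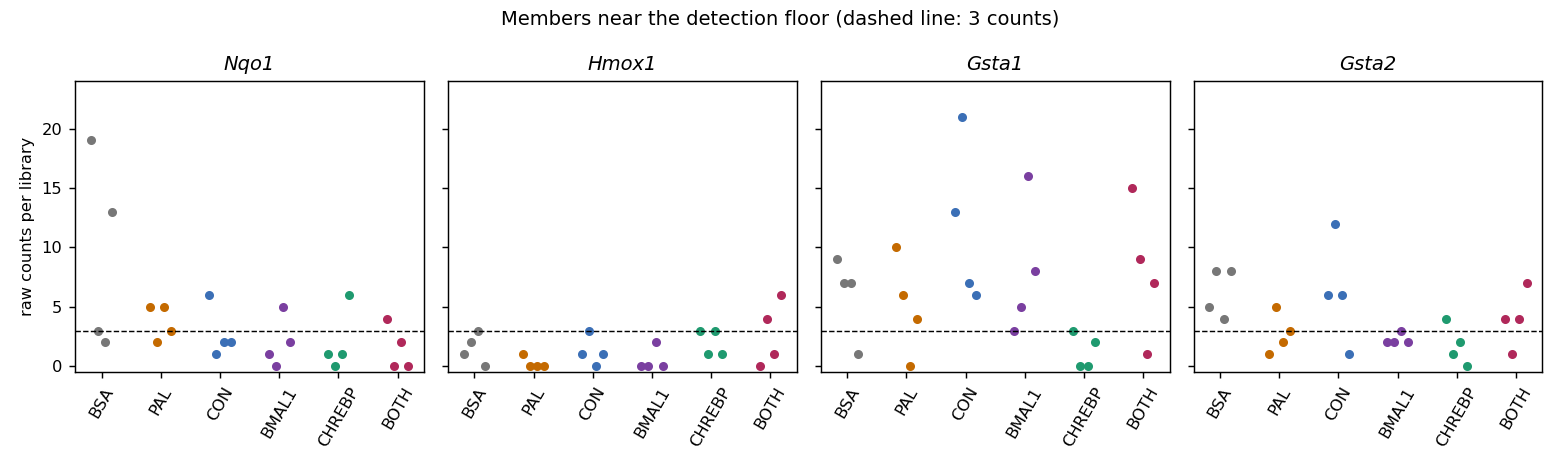
Raw counts of *Nqo1*, *Hmox1*, *Gsta1* and *Gsta2* (vertical axis, counts per library) in the 6 groups, with 1 dot per library and a dashed line at the floor of 3 counts. No library reached 25 counts for any of these genes, and *Gsta1* ran from 6 to 21 counts in CON against 0 to 3 in CHREBP.

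The same measure marks other counts as uncertain, since 3′ counting reads only the ends of transcripts. The share of 50-base words found in another gene was 83.4% for *Gpx4*, 79.2% for *Ftl1*, 76.7% for *Gstp1* (shared with *Gstp2* and a pseudogene), 31.8% for *Prdx1*, 23.0% for *Gstm1* (shared with *Gstm3* and pseudogenes) and 18.3% for *Sod1*. It was 8.73% for *Fth1*, 4.58% for *Sod2*, 2.82% for *Gstm2* and 0 for the remaining genes. Several genes overlap another annotated gene. *Mgst2* overlaps *Gm37261* on its own strand, *Keap1* overlaps *Gm16754* on the other strand, and *Gss* overlaps 3 genes on the other strand. Whether the counting used strand is not given in the sources used here.

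Promoter windows, 250 bases before to 50 bases after the RefSeq start on GRCm38.p6, were found for 28 of the 33 genes. *Hmox1*, *Gclc*, *Gsr*, *Prdx6* and *Gsta4* had no window in the promoter set used here. The ARE core was searched as the letters TGACNNNGC on both strands. It occurred in 9 of these 28 genes (32.1%), against 3781 of 27025 genes with a window (14%). The 9 were *Nfe2l2* itself, *Gclm*, *Srxn1*, *Txnrd1*, *Prdx1*, *Gsta3*, *Mgst1*, *Sod1* and *Ugdh*, the last with 2 matches. The E-box letters CACGTG, the core bound by BMAL1 with CLOCK, were in 0 of the 28 genes and in 8.09% of all genes with a window. A match is a run of letters and not a shown binding site, and the lack of a match speaks only of these 300 bases. Of the 13 genes called lower with palmitate, as described next, 11 had a window and 4 of these held the core, against 9 of the 28. The other 5 genes with the core were not called, and *Gstm1*, *Gstm2*, *Gstp1*, *Mgst2*, *Fth1*, *Cat* and *Sod2* were lower with no core in their windows. Windows are printed for *Gclm* (chr3:122245307-122245606), *Prdx1* (chr4:116685349-116685648), *Gsta3* (chr1:21240335-21240634) and *Mgst1* (chr6:138140277-138140576), all on the + strand, which are the 4 genes that both held the core and were lower, and so are not a sample of either set. Capitals mark the core, which reads on the minus strand in *Gclm*, *Prdx1* and *Mgst1* and on the plus strand in *Gsta3*. In the order printed, the leftmost of the capitals lies 134, 133, 121 and 56 bases before the start.

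Gclm: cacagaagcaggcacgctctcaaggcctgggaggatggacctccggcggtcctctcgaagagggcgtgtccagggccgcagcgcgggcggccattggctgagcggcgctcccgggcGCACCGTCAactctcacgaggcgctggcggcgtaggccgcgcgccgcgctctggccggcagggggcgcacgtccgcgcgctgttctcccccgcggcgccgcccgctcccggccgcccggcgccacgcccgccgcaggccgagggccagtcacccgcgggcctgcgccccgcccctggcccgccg
Prdx1: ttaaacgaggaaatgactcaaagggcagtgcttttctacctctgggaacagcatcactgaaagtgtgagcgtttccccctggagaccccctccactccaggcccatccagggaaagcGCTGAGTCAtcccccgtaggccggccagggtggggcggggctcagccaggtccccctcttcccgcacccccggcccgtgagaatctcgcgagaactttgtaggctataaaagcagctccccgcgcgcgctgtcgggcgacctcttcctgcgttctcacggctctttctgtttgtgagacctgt
Gsta3: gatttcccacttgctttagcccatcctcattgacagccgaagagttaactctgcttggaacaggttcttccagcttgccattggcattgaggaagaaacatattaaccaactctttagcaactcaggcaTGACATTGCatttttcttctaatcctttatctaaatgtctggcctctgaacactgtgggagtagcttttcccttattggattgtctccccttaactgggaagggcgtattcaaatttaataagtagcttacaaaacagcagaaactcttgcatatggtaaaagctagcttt
Mgst1: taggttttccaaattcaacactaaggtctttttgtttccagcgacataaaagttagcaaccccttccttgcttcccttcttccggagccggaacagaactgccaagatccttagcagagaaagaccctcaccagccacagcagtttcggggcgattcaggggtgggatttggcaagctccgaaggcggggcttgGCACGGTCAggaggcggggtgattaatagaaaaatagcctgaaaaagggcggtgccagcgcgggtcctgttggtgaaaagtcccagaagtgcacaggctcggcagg

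Palmitate was compared with its carrier to see which of these genes a fatty acid load moves. Of the glutathione transferases, 5 of 7 cytosolic and 2 of 3 microsomal enzymes were called lower with palmitate, with the largest difference in the microsomal *Mgst1*, while the regulators *Nfe2l2* and *Keap1* were not called. DESeq2 called 13 genes lower and 1 higher of the 32 that passed the filter on low counts (summed count of at least 25, *Padj* under 0.1 over all genes). Among all 12827 genes tested, 7.60% were called lower and 6.65% higher. The median log2 fold change was -0.16 over the 32 genes and 0.0048 over all genes. All fold changes and *Padj* are those of DESeq2 unless edgeR is named, and normalized counts use size factors from all 24 libraries. Cell type markers moved in this comparison too. Of 7 hepatocyte markers, *Alb* (log2 fold change -0.97, *Padj* = 1.04e-07), *Ttr* (-0.30, *Padj* = 0.0111) and *Serpina1a* (-0.24, *Padj* = 0.0818) were called lower, *Krt8* (0.37, *Padj* = 8.66e-09) and *Krt18* (0.45, *Padj* = 3.92e-17) higher, and *Apoa1* and *Hnf4a* were not called. Their summed normalized count, mostly from the keratins, ran from 39641 to 42396 in BSA and from 50401 to 55687 in PAL. The cholangiocyte keratin *Krt19* was called higher (0.53, *Padj* = 7.72e-09), and the sum of the 3 cholangiocyte markers was 2069 to 2739 in BSA and 3200 to 3727 in PAL. The summed macrophage markers were at 5.995 to 14.2 in BSA and 7.92 to 15.6 in PAL, those of stellate cells or fibroblasts at 5.995 to 28.0 and 3.02 to 6.60 (*Des* called lower, -2.59, *Padj* = 0.0521), and the endothelial ones at 0 and at most 1.12. The part of these markers in the results was not tested. In these bulk RNA samples, fewer cells of a kind and less RNA per cell cannot be told apart.

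The regulators showed no call in either direction. *Nfe2l2* (ENSMUSG00000015839, GRCm38 chromosome 2, 75675513 to 75704641, - strand) had 2196, 2158, 2108 and 2067 normalized counts in BSA and 2244, 2025, 2254 and 2090 in PAL. All BSA libraries lay within the PAL range, and the log2 fold change was 0.02 (95% interval -0.09 to 0.13, *Padj* = 0.913). *Keap1* (ENSMUSG00000003308, chromosome 9, 21229730 to 21239361, - strand) had 419.7, 386, 387 and 393 in BSA and 452, 364, 370.1 and 361 in PAL. PAL replicate 1 stood above all BSA libraries and the other PAL libraries below them, with a log2 fold change of -0.04 (95% interval -0.23 to 0.16, *Padj* = 0.897), and -0.11 (*Padj* = 0.595) without that library.

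Among the enzymes of glutathione supply, 1 was called lower and 1 higher. *Gclm*, the modifier subunit of glutamate-cysteine ligase, had 2402, 2618, 2438 and 2501 normalized counts in BSA and 1886, 2266, 2083 and 2002 in PAL. All PAL libraries lay below all BSA libraries (log2 fold change -0.27, SE 0.06, *Padj* = 0.000709). *Gclc*, the catalytic subunit of the same enzyme, had a log2 fold change of 0.12 (SE 0.06, *Padj* = 0.233), and *Gss*, glutathione synthetase, one of -0.16 (SE 0.14, *Padj* = 0.576). *Gsr*, glutathione reductase, which returns oxidized glutathione to its reduced form, was the only gene of the list called higher. Its normalized counts were 3350, 3479, 3576 and 3257 in BSA and 4454, 3693, 4346 and 3957 in PAL, with no overlap (log2 fold change 0.27, SE 0.06, *Padj* = 0.000500).

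The cytosolic glutathione transferases held 5 of the 13 genes called lower, and the 2 members of that class that were not called were *Gsta1* and *Gsta2*, near the floor. *Gsta4* (ENSMUSG00000032348, chromosome 9, 78182774 to 78209349, + strand), which acts on the lipid peroxidation product 4-hydroxynonenal, had 936, 1065, 968 and 1064 normalized counts in BSA and 675, 561, 481 and 602 in PAL. The groups were widely separated, with means of 1008 ± 66.2 and 579.6 ± 80.8 (SD, n = 4) and a log2 fold change of -0.79 (SE 0.09, *Padj* = 6.37e-16). *Gstm1* (ENSMUSG00000058135, chromosome 3, 108012255 to 108017973, - strand), an abundant mu-class enzyme of liver, had 3430, 3138, 2628 and 3002 in BSA and 1754, 1536, 2264 and 1653 in PAL. PAL replicate 3 came nearest to the BSA libraries but did not reach them (log2 fold change -0.75, SE 0.15, *Padj* = 1.89e-05). *Gstm2* (ENSMUSG00000040562, chromosome 3, 107981702 to 107986453, - strand), of the same class, had 331, 413, 317 and 369 in BSA and 261, 189, 253 and 230.1 in PAL, again without overlap (log2 fold change -0.61, SE 0.12, *Padj* = 1.81e-05).

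*Gstp1* (ENSMUSG00000060803, chromosome 19, 4035407 to 4037985, - strand), the pi-class transferase, had 4487, 4156, 3921 and 4609 normalized counts in BSA and 2587, 2618, 2752 and 2573 in PAL. The PAL libraries were tightly grouped at 2633 ± 81.6 (SD, n = 4), well under the lowest BSA library (log2 fold change -0.70, SE 0.06, *Padj* = 2.09e-28). *Gsta3* (ENSMUSG00000025934, chromosome 1, 21240589 to 21265661, + strand), an alpha-class enzyme, had 7950, 7843, 8413 and 8975 in BSA and 5769, 5731, 5676 and 5623 in PAL. Its PAL libraries differed from one another by far less than they did from BSA (log2 fold change -0.53, SE 0.05, *Padj* = 2.56e-21).

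Of the 3 microsomal enzymes, 2 were called lower. *Mgst1* (ENSMUSG00000008540, chromosome 6, 138140316 to 138156755, + strand), a membrane-bound transferase that also reduces lipid hydroperoxides, had 1972, 1775, 1846 and 1961 normalized counts in BSA and 698, 655, 662 and 714 in PAL. PAL was at 0.363 of BSA, with means of 682 ± 28.3 and 1888 ± 94.7 (SD, n = 4), and the log2 fold change of -1.46 (SE 0.07, *Padj* = 1.16e-101) was the largest of the list. *Mgst2* (ENSMUSG00000074604, chromosome 3, 51660360 to 51682677, + strand), which also makes leukotriene C4, had 255, 213, 239 and 231 in BSA and 217, 192, 135 and 189.7 in PAL. The highest PAL library exceeded the lowest BSA library, the log2 fold change was -0.35 (SE 0.14, *Padj* = 0.0771), and the call was lost on leaving out BSA replicate 1, 3 or 4 or PAL replicate 2, 3 or 4, with the replicate block and without the filter on low counts, where the log2 fold change reached -0.23 at its smallest. *Mgst3* varied widely within groups, from 467 to 868 in PAL alone, and was not called (log2 fold change 0.16, SE 0.24, *Padj* = 0.790), but was higher at 0.34 (*Padj* = 0.0167) without PAL replicate 2.

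Peroxide and superoxide enzymes split by gene. Catalase (*Cat*, ENSMUSG00000027187, chromosome 2, 103453849 to 103485160, - strand), the peroxisomal enzyme that breaks down hydrogen peroxide, had 4131, 4064, 4293 and 4629 normalized counts in BSA and 3242, 3426, 3392 and 3337 in PAL. No PAL library reached BSA (log2 fold change -0.35, SE 0.06, *Padj* = 2.68e-08). *Sod2* (ENSMUSG00000006818, chromosome 17, 13006846 to 13040063, + strand), the mitochondrial superoxide dismutase, had 1198, 1066, 1059 and 1060 in BSA and 836, 863, 839 and 882 in PAL. BSA replicate 1 stood above the rest of its group, and the log2 fold change was -0.35 (SE 0.07, *Padj* = 1.91e-05) with it and -0.30 (*Padj* = 0.00140) without it. *Sod1*, the cytosolic dismutase, was not called (log2 fold change 0.0012, SE 0.11, *Padj* = 0.998), nor were the peroxidases *Gpx1* (0.01, SE 0.10, *Padj* = 0.969) and *Gpx4* (0.04, SE 0.05, *Padj* = 0.715).

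The peroxiredoxins were called lower by a smaller margin. *Prdx1* had 45110 to 49057 normalized counts in BSA and 40346 to 43821 in PAL (log2 fold change -0.15, SE 0.05, *Padj* = 0.0157), and *Prdx6*, which reduces phospholipid hydroperoxides, had 8543 to 9077 and 7371 to 7849 (log2 fold change -0.19, SE 0.05, *Padj* = 0.00116). Thioredoxin (*Txn1*, log2 fold change 0.11), thioredoxin reductase (*Txnrd1*, 0.10) and sulfiredoxin (*Srxn1*, -0.17), which keep peroxiredoxins reduced, were not called (*Padj* of 0.257, 0.446 and 0.428).

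The ferritin chains, which store iron, did not move together. The heavy chain *Fth1* (ENSMUSG00000024661, chromosome 19, 9980598 to 9985098, + strand) had 68524, 69844, 69278 and 72370 normalized counts in BSA and 55112, 57138, 56174 and 53627 in PAL. All PAL libraries were lower (log2 fold change -0.33, SE 0.04, *Padj* = 2.59e-12). The light chain *Ftl1* (ENSMUSG00000050708, chromosome 7, 45457944 to 45459884, - strand) had 27957, 28235, 17294 and 26895 in BSA and 30917, 31561, 29025 and 25977 in PAL. BSA replicate 3 lay far below the other BSA libraries, and the log2 fold change was 0.23 (SE 0.16, *Padj* = 0.433) with it and 0.09 (SE 0.06, *Padj* = 0.457) without it. The biliverdin reductase *Blvrb* (log2 fold change -0.22, *Padj* = 0.266), the glucuronate-forming dehydrogenase *Ugdh* (0.07, *Padj* = 0.610) and the stress-induced growth inhibitor *Osgin1* (0.07, *Padj* = 0.600) were not called, but *Blvrb* passed without BSA replicate 3 (-0.31, *Padj* = 0.0973).

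The esiRNA groups also received palmitate, in other library columns, and CON and CHREBP were in the rows of BSA. In all 20 palmitate libraries, *Mgst1* (655 to 1040), *Gsta4* (427 to 819), *Gstm1* (1536 to 2386), *Gstp1* (2452 to 3473), *Cat* (2860 to 3698), *Sod2* (712 to 882) and *Prdx6* (6786 to 8289) lay below the lowest BSA library. For *Gsta3*, *Gstm2*, *Fth1*, *Gclm*, *Prdx1* and *Mgst2* the ranges overlapped, with at least 1 esiRNA or PAL library as high as the lowest BSA library. *Gsr* also overlapped, at 3481 to 4454 with palmitate against 3257 to 3576 in BSA. The genes below all BSA libraries had been called lower against the same BSA libraries, so this separation is not separate support. How many of all genes separate in this way was not counted.

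**Figure D2:**
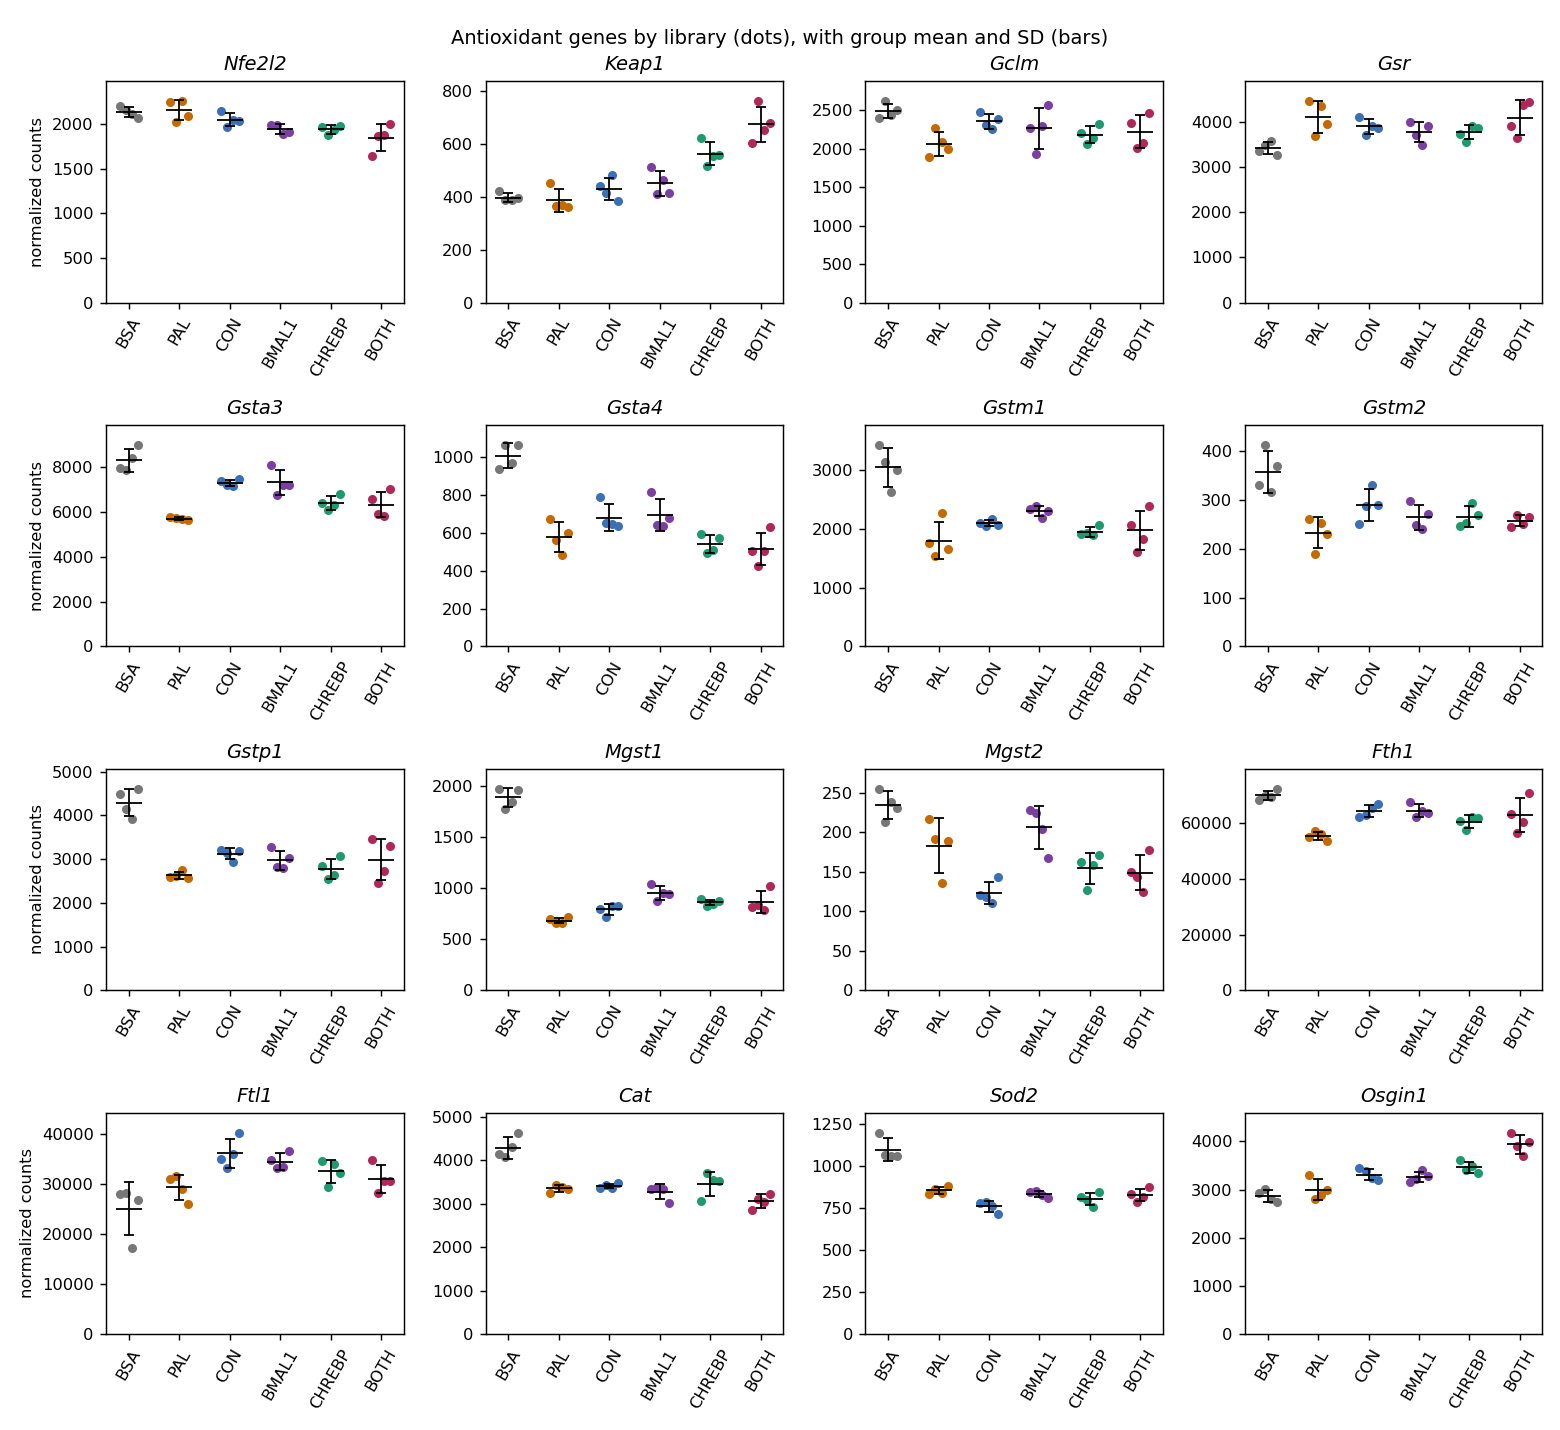
Normalized counts (vertical axes, linear, starting at 0) of 16 of the genes in the 6 groups, with 1 dot per library and bars for the group mean and SD (n = 4). The 4 BSA libraries of *Mgst1*, *Gsta4*, *Gstm1*, *Gstp1*, *Cat* and *Sod2* lie above all 20 palmitate libraries, whereas *Keap1* and *Osgin1* are highest in BOTH.

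CON was set against PAL to show what transfection with control esiRNA adds to palmitate, as a background for the silencing experiment. Here 5 genes were called higher and 1 lower of 32 that passed the filter, 30 of which received a *Padj*. Among all 12928 genes tested, 1.59% were called higher and 0.920% lower. The median log2 fold change was 0.12 over the 32 genes and -4.0e-05 over all genes. The PAL libraries also enter PAL against BSA, so the values of these comparisons are given side by side only. Of the cell type markers, *Alb* was called higher (log2 fold change 0.63, *Padj* = 0.0105) and *Krt18* lower (-0.15, *Padj* = 0.0386). The summed hepatocyte markers, again mostly from the keratins, were at 48038 to 49926 in CON and lay below PAL. Those of stellate cells or fibroblasts, at 7.40 to 10.8, lay above PAL, while the other sums overlapped. Their part in the results was not tested.

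*Gsta3* had 7378, 7181, 7141 and 7449 normalized counts in CON, above the 5623 to 5769 of PAL and below the lowest BSA library, with a log2 fold change of 0.35 (SE 0.04, *Padj* = 5.1e-14). *Gstp1* had 3207, 3147, 2936 and 3188 in CON against 2573 to 2752 in PAL (log2 fold change 0.24, SE 0.05, *Padj* = 0.000463). These enzymes of the alpha and pi classes were without overlap between CON and PAL. With all 24 libraries in the fit, *Gstp1* was no longer called (*Padj* = 0.153). *Fth1* had 62434, 62975, 65409 and 66756 in CON against 53627 to 57138 in PAL (log2 fold change 0.21, SE 0.04, *Padj* = 0.000105). *Ftl1*, its partner chain, had 35053, 33235, 35956 and 40267 in CON against 25977 to 31561 in PAL (log2 fold change 0.30, SE 0.07, *Padj* = 0.00109). Both ferritin chains were without overlap between these groups, but *Ftl1* was not called with the replicate block or with all 24 libraries in the fit, where *Padj* reached 0.424.

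*Gclm* had 2480, 2303, 2250 and 2384 in CON, and 1 PAL library lay within that range (log2 fold change 0.19, SE 0.06, *Padj* = 0.0990). That call was lost on leaving out any CON library or PAL replicate 1, 3 or 4, with edgeR, with the replicate block and with all 24 libraries in the fit. *Mgst2* was called in the other direction, at 120.3, 119, 111 and 144 in CON against 135 to 217 in PAL. The lowest PAL library fell within the CON range (log2 fold change -0.58, SE 0.15, *Padj* = 0.0101), and *Padj* was 0.104 without CON replicate 3. *Gsta4* (log2 fold change 0.23, *Padj* = 0.314, and 0.15, *Padj* = 0.707, without CON replicate 1), *Gstm1* (0.22, *Padj* = 0.275), *Gstm2* (0.32, *Padj* = 0.215), *Mgst1* (0.21, *Padj* = 0.160), *Sod2* (-0.17, *Padj* = 0.234) and *Txn1* (0.11, *Padj* = 0.324) were not called, although *Sod2* and *Txn1* did not overlap between the groups. Leaving out 1 library brought calls of higher levels in CON for *Gstm1* (log2 fold change 0.34, *Padj* = 3.81e-05, without PAL replicate 3), *Gpx1* (0.29, *Padj* = 0.00366, without PAL replicate 2), *Mgst1* (without CON replicate 2), and *Gsta4* and *Osgin1* (without PAL replicate 1).

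**Figure D3:**
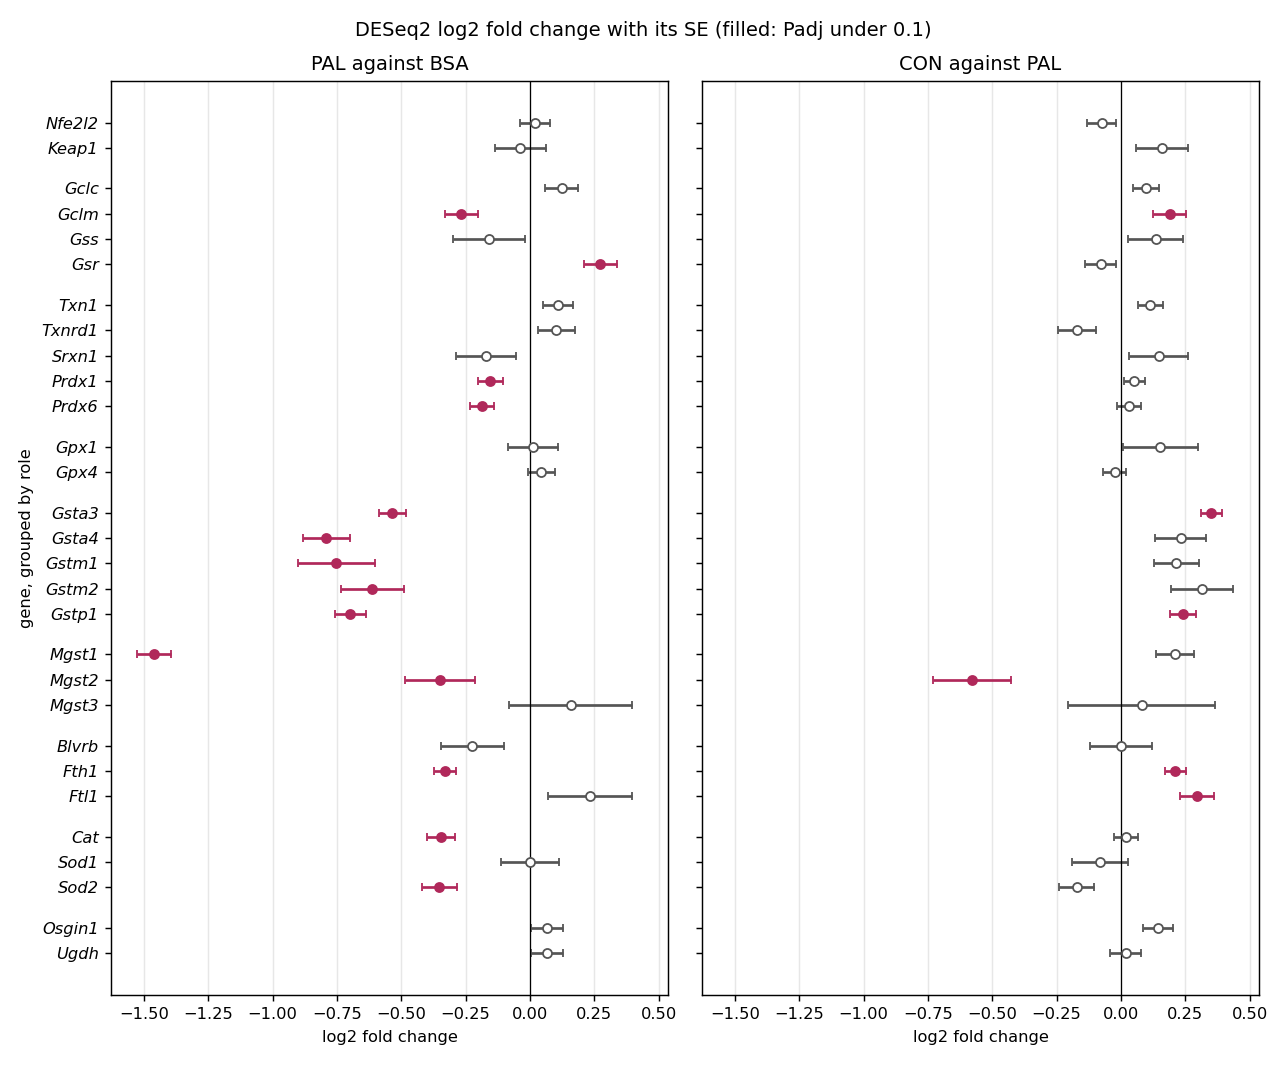
DESeq2 log2 fold change (horizontal axes) with its SE for 29 genes, grouped by role on the vertical axis, in PAL against BSA (left) and CON against PAL (right). Filled red points have *Padj* under 0.1, and 13 of the 14 filled points on the left lie below 0, with *Mgst1* at -1.46.

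BMAL1 was set against CON to ask what *Bmal1* regulates in palmitate-treated cells. Of the 33 genes fitted, 29 of which received a *Padj*, 1 was called higher and 0 lower. Over all 13883 genes tested, 0.166% were called higher and 0.324% lower. For the count of 0, DESeq2 gave 0 genes below 0 at an unadjusted p under 0.05, and edgeR also called 0 lower. The gene called was *Mgst2*, at 228, 225, 204 and 168 normalized counts in BMAL1 against 120.3, 119, 111 and 144 in CON. No library overlapped, and BMAL1 was at 1.67 times CON (log2 fold change 0.74, SE 0.14, *Padj* = 0.000514). The BMAL1 libraries lay within the span of the untransfected groups, 135 to 255, while 3 of the 4 CON libraries lay below it. Without CON replicate 3, DESeq2 returned no *Padj* for *Mgst2*, which therefore counts as not called. Under the other alternatives *Padj* was at most 0.031, and the log2 fold change stayed between 0.69 and 0.83 over all alternatives tried.

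*Mgst1*, *Gstm1* and *Sod2* lay above CON in BMAL1 without overlap but did not pass the test. *Mgst1* had 1040, 869, 948 and 940.3 in BMAL1 against 799, 713, 829 and 829 in CON (log2 fold change 0.26, SE 0.09, *Padj* = 0.180), and was called with all 24 libraries in the fit (*Padj* = 0.0749). The log2 fold change was 0.14 (SE 0.09, *Padj* = 0.818) for *Gstm1* and 0.13 (SE 0.07, *Padj* = 0.659) for *Sod2*. How many of all genes lay without overlap between BMAL1 and CON was not counted. *Nfe2l2* had 1986, 1992, 1887 and 1909 in BMAL1 against 2141, 1965, 2042 and 2037 in CON (log2 fold change -0.08, 95% interval -0.19 to 0.04, *Padj* = 0.880). *Keap1* had 512, 411, 464 and 415 against 442, 415, 482 and 383 (log2 fold change 0.06, 95% interval -0.14 to 0.26, *Padj* = 0.977). The BMAL1 range overlapped the CON range for both regulators. The median log2 fold change over the 33 genes was -0.02, and -0.0050 over all genes. The hepatocyte marker *Ttr* was called higher (0.46, *Padj* = 5.83e-07), and 0 of 7 hepatocyte markers were called lower. Their summed normalized count, again mostly from the keratins, was 46082 to 47830, below the 48038 to 49926 of CON. The other marker sums overlapped, and the part of these markers in the results was not tested.

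CHREBP was set against CON for the same purpose. *Keap1* was higher, *Gsta4* lower, and *Gsta1* was lower near the floor, so that 1 gene was called higher and 2 lower of 33 fitted, 30 with a *Padj*. Over all genes, 2.65% were called higher and 0.771% lower, and 1 of 33 is close to the share of all genes called higher. *Keap1* had 622, 517, 553 and 558 normalized counts in CHREBP, all above the 383 to 482 of CON (log2 fold change 0.38, SE 0.10, *Padj* = 0.00605). *Nfe2l2*, whose product KEAP1 restrains, had 1962, 1872, 1934 and 1981 in CHREBP, with a log2 fold change of -0.08 (95% interval -0.20 to 0.04, *Padj* = 0.715). *Gsta4* had 595, 494, 511 and 572 in CHREBP against 790, 651, 646 and 638 in CON. The groups did not overlap (log2 fold change -0.33, SE 0.11, *Padj* = 0.0915). CON replicate 1 stood above its group, and without it the log2 fold change was -0.25 (*Padj* = 0.421). The call was also lost with edgeR and without CON replicate 2, 3 or 4 or CHREBP replicate 2, 3 or 4.

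*Gsta1* had 3, 0, 0 and 2 raw counts in CHREBP against 13, 21, 7 and 6 in CON, with *Padj* = 0.0250. This *Padj* rests on few reads, exceeded 0.1 without CON replicate 2, CHREBP replicate 2 or CHREBP replicate 3, and concerns a gene whose 3′ end is largely shared. In BOTH, which also received *Chrebp* esiRNA, *Gsta1* had 15, 9, 1 and 7 counts. *Blvrb*, *Gsta3*, *Fth1* and *Ugdh* lay below CON without overlap and were not called (log2 fold changes of -0.36, -0.19, -0.09 and -0.11, *Padj* of 0.324, 0.122, 0.677 and 0.484). Of these, *Gsta3* became 1 more gene called lower with the replicate block (*Padj* = 0.0480), with all 24 libraries in the fit (*Padj* = 0.0677) and without the filter on low counts (*Padj* = 0.0931). It was also called without CHREBP replicate 4 (*Padj* = 0.0869). *Fth1* was separated only narrowly, with its highest CHREBP library at 62339 and its lowest CON library at 62434. How many of all genes lay without overlap between CHREBP and CON was not counted. Of the cell type markers, *Krt7* was called lower (-0.32, *Padj* = 0.0989), and all marker sums overlapped between CHREBP and CON.

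With both esiRNAs, 2 genes were called higher and 3 lower than in CON, of 33 fitted and 31 with a *Padj*. Over all genes, 5.99% were called higher and 3.75% lower, and 2 of 33 is close to the share of all genes called higher. Markers moved here too, with *Krt19* (log2 fold change -0.34, *Padj* = 0.00318), *Krt7* (-0.49, *Padj* = 0.000281), *Serpina1a* (-0.35, *Padj* = 0.0312) and *Hnf4a* (-0.17, *Padj* = 0.0794) called lower. The summed cholangiocyte markers ran from 2120 to 2881 in BOTH, below the 3158 to 3482 of CON, and the other sums overlapped. The part of the markers in the results of BOTH was not tested. *Keap1* had 603, 761, 653 and 679 normalized counts in BOTH, above every CON library, and was at 1.56 times CON (log2 fold change 0.64, SE 0.10, *Padj* = 4.12e-09). *Osgin1* had 4181, 3904, 3702 and 3987 in BOTH against 3443, 3378, 3233 and 3194 in CON (log2 fold change 0.25, SE 0.05, *Padj* = 8.85e-05). Both were without overlap, and both remained called under each alternative tried. *Nfe2l2* had 1641, 1868, 1878 and 1999 in BOTH, with 3 of 4 libraries below the lowest CON library, and was not called (log2 fold change -0.15, 95% interval -0.27 to -0.03, *Padj* = 0.120). It was called lower with all 24 libraries in the fit (*Padj* = 0.0753), without the filter on low counts (*Padj* = 0.0891) and without BOTH replicate 4 (*Padj* = 0.0196).

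The genes called lower in BOTH were *Gsta4*, *Gsta3* and *Ftl1*. *Gsta4* had 503, 427, 507 and 632 in BOTH, below all CON libraries (log2 fold change -0.40, SE 0.11, *Padj* = 0.00874), and -0.32 (*Padj* = 0.0795) without CON replicate 1. *Gsta3* had 6547, 5919, 5790 and 7004 in BOTH, also below the 7141 to 7449 of CON (log2 fold change -0.21, SE 0.07, *Padj* = 0.0321). *Ftl1* had 34886, 28141, 30628 and 30685 in BOTH, where the highest library reached into the CON range (log2 fold change -0.22, SE 0.07, *Padj* = 0.0458). *Cat* also lay below CON without overlap and was not called (log2 fold change -0.16, *Padj* = 0.117), but passed under the same 3 alternatives as *Nfe2l2* (*Padj* of 0.0706, 0.0882 and 0.0449). The *Gsta3* and *Ftl1* calls were both lost without CON replicate 4, BOTH replicate 2 or BOTH replicate 3, and that of *Ftl1* also without CON replicate 3 and with all 24 libraries in the fit. Without BOTH replicate 4, 9 genes were called in place of 5, the others being *Nfe2l2*, *Cat*, *Gstm1* and *Ugdh*. CHREBP and BOTH share the CON libraries and the library column, so their values are set side by side and are not independent.

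**Figure D4:**
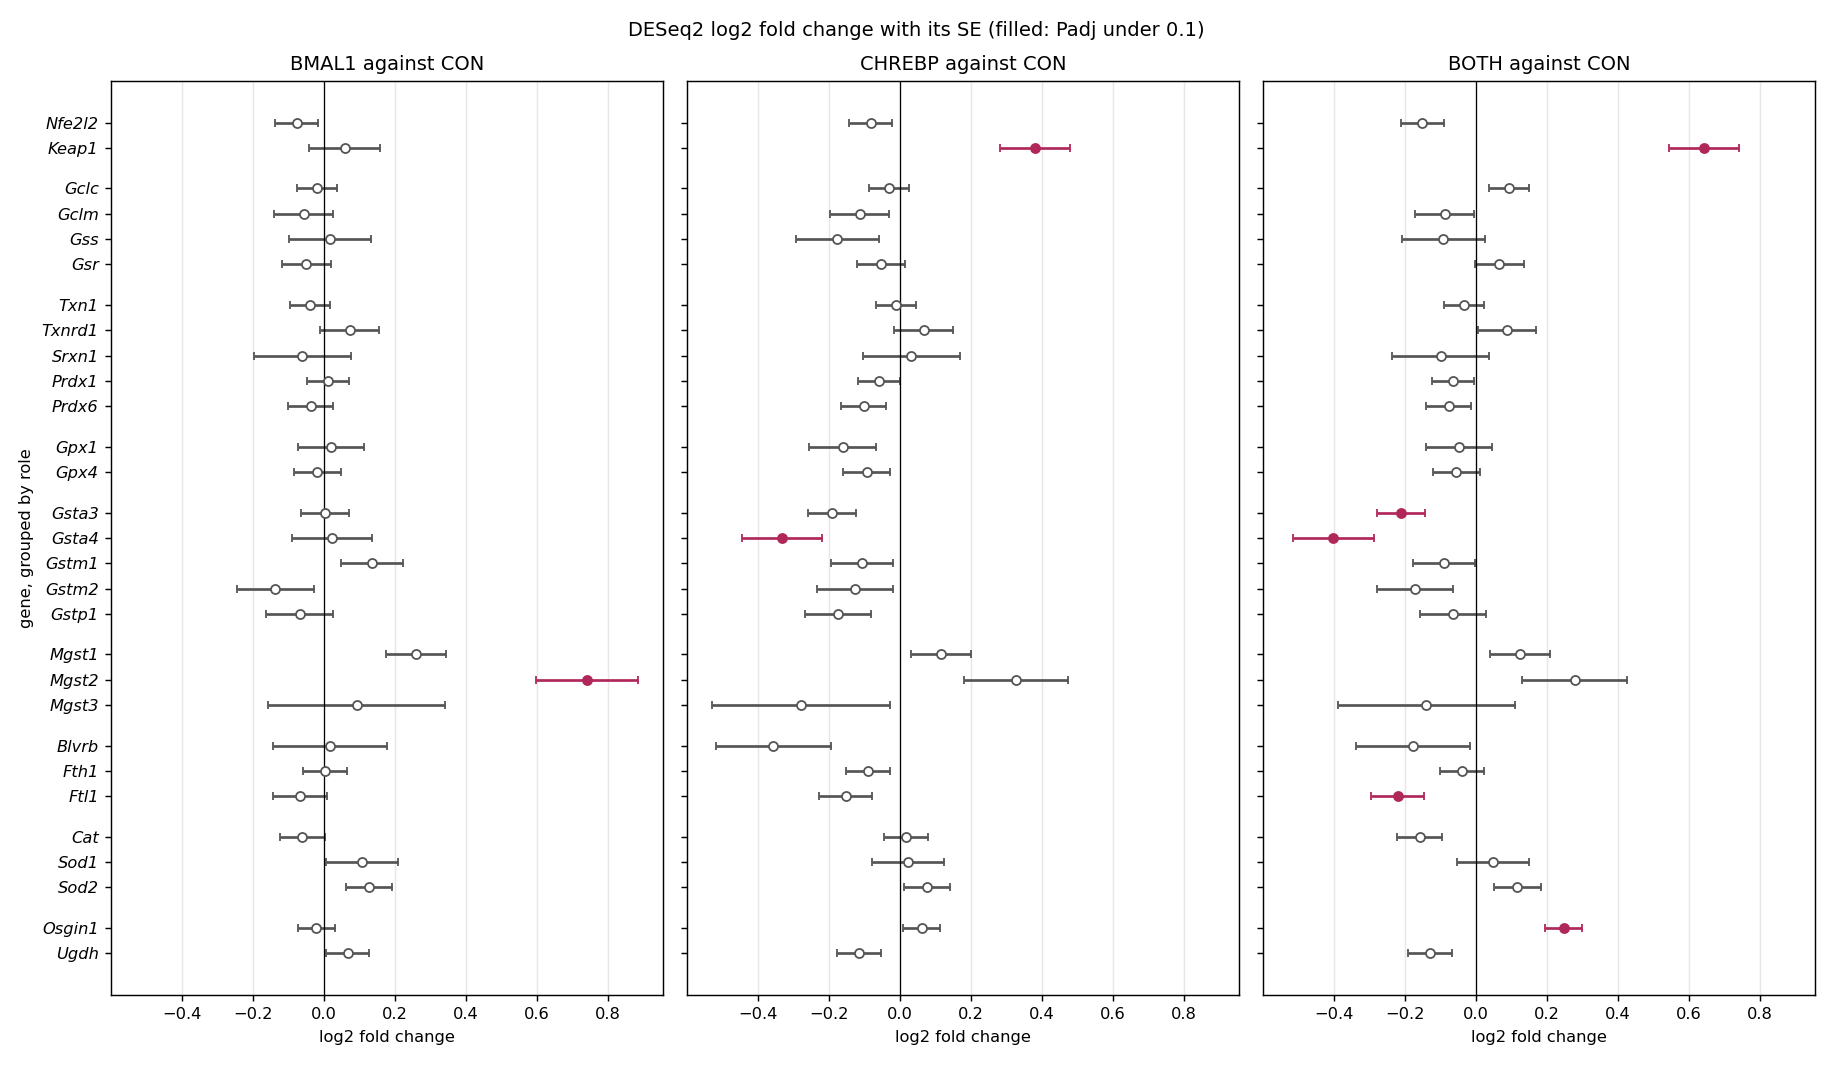
DESeq2 log2 fold change (horizontal axes) with its SE for 29 genes, grouped by role, in BMAL1, CHREBP and BOTH against CON. Filled red points have *Padj* under 0.1. *Mgst2* is the filled point in BMAL1 at 0.74, and *Keap1* is filled at 0.38 in CHREBP and at 0.64 in BOTH.

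BOTH was also compared with each single silencing, at a total esiRNA dose of 200 nM against 100 nM. BOTH against CHREBP, where *Bmal1* esiRNA goes with both dose and row, had 1 gene called higher and 0 lower (0.843% and 0.151% of all genes). It was *Osgin1*, at 3702 to 4181 in BOTH against 3344 to 3610 in CHREBP (log2 fold change 0.19, SE 0.05, *Padj* = 0.0496), and edgeR called 0 genes, with 5 at an unadjusted p under 0.05. For the count of 0 lower, 1 gene was below 0 at an unadjusted p under 0.05 with DESeq2. *Osgin1* was also not called without CHREBP replicate 2, 3 or 4 or BOTH replicate 1. *Keap1* had a log2 fold change of 0.26 (SE 0.10, *Padj* = 0.257) in this comparison. *Cat* was called lower without CHREBP replicate 1 (-0.23, *Padj* = 0.0110) or BOTH replicate 4 (-0.20, *Padj* = 0.0733). The marker sums overlapped between BOTH and CHREBP. BOTH against BMAL1, where *Chrebp* esiRNA goes with both dose and column, had 2 genes called higher and 5 lower (6.35% and 4.08% of all genes). Of 33 fitted, 2 is close to the share of all genes called higher. The markers *Ttr* (log2 fold change -0.49, *Padj* = 7.51e-10), *Krt19* (-0.32, *Padj* = 0.00590), *Serpina1a* (-0.33, *Padj* = 0.0432) and *Hnf4a* (-0.18, *Padj* = 0.0455) were called lower, and the summed cholangiocyte markers lay below the 3004 to 3295 of BMAL1, with a part in the results that was not tested. *Keap1* (log2 fold change 0.58, SE 0.10, *Padj* = 1.75e-07) and *Osgin1* (0.27, SE 0.05, *Padj* = 1.42e-05) were higher without overlap. *Gsta4* (-0.42, *Padj* = 0.00439) and *Ugdh* (-0.20, *Padj* = 0.0235) were lower without overlap, and *Gsta3* (-0.21, *Padj* = 0.0253), *Gstm1* (-0.23, *Padj* = 0.0901) and *Mgst2* (-0.46, *Padj* = 0.0185) were lower with overlapping groups. *Gstm1* lost its call without any 1 BMAL1 library, without BOTH replicate 2 or 3, with edgeR, with TMM factors and with all 24 libraries in the fit, and its log2 fold change ranged from -0.33 to -0.14 over the alternatives. *Ugdh* lost it without BMAL1 replicate 4 or BOTH replicate 2 or 3, and *Gsta3* without BMAL1 replicate 1 or BOTH replicate 3. Calls were gained for *Ftl1* (lower, without BOTH replicate 1), *Gsr* (higher, without BOTH replicate 2) and *Mgst1* (lower, without BOTH replicate 4).

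The interaction asks whether the effect of *Bmal1* esiRNA differs with and without *Chrebp* esiRNA. It also sets the groups given 200 nM (CON and BOTH) against those given 100 nM (BMAL1 and CHREBP), so that an effect of dose cannot be told apart from it. It called 0 genes more positive and 1 more negative, against 1.20% and 0.267% of all genes. For the count of 0, DESeq2 gave 2 genes above 0 at an unadjusted p under 0.05, and edgeR called 0. The gene was *Mgst2*, with an interaction of -0.79 on the log2 scale (SE 0.20, *Padj* = 0.0169). Its log2 fold change with *Bmal1* esiRNA was 0.74 in the absence of *Chrebp* esiRNA and -0.05 (SE 0.15, *Padj* = 0.980) in its presence, where CHREBP had 163, 127, 158 and 172 normalized counts and BOTH had 149, 144, 125 and 178. The CON libraries were lower than those of the other 3 esiRNA groups, apart from CON replicate 4, which lay among the CHREBP and BOTH libraries. The hepatocyte marker *Ttr* was also called in the interaction (-0.35, *Padj* = 0.0485), and its part was not tested. Without BOTH replicate 4 *Mgst1* was called in the interaction (-0.34, *Padj* = 0.0507), and without BOTH replicate 3 *Osgin1* (0.24, *Padj* = 0.0974). The likelihood ratio test over the 4 esiRNA groups called 7 of the 33 genes (*Keap1*, *Osgin1*, *Mgst2*, *Gsta4*, *Gsta3*, *Gsta1* and *Ugdh*), against 9.92% of all genes.

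A wider list of 75 other genes of NRF2 control, glutathione and thioredoxin metabolism, NADPH supply and export was counted in the same fits, and 66 or 67 of them passed the filter. In PAL against BSA, 18 of 66 were called lower and 5 higher, with a median log2 fold change of -0.10. Of all genes, 7.60% were called lower and 6.65% higher, so that 5 of 66 is near the share of all genes called higher. With the replicate block, 14 were called lower and 3 higher. The largest differences among genes with a mean of at least 50 were in the theta-class transferase *Gstt2* (log2 fold change -0.86, SE 0.12, *Padj* = 1.56e-11), the exporter of conjugates *Abcc3* (-0.63, SE 0.07, *Padj* = 1.32e-17), glutaredoxin *Glrx* (-0.60, SE 0.09, *Padj* = 1.03e-09) and the canalicular exporter *Abcc2* (-0.58, SE 0.20, *Padj* = 0.0351). *Abcc2* was not called with the replicate block or without BSA replicate 1 or 4 or PAL replicate 2. It had mean normalized counts of 107 ± 27.2 in BSA, 70.5 ± 6.13 in PAL and 124 ± 5.46 in CON (SD, n = 4).

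In CON against PAL, 3 of 67 genes of the wider list were called higher and 1 lower (1.59% and 0.920% of all genes), and 2 and 0 with the replicate block. With the block, 1 gene was below 0 at an unadjusted p under 0.05, and edgeR called 1 lower. The genes called without the block were *Abcc2* (log2 fold change 0.81, *Padj* = 0.000145), the plasma peroxidase *Gpx3* (0.46, *Padj* = 0.0845), the NADPH-producing *Pgd* (0.30, *Padj* = 0.00732) and the sestrin *Sesn1* (-0.66, *Padj* = 0.0529). The block ended the calls of *Gpx3* and *Sesn1*, that of *Gpx3* was lost without any 1 library and with all 24 libraries in the fit, that of *Sesn1* without PAL replicate 1, 3 or 4 or CON replicate 2, 3 or 4, and that of *Pgd* without CON replicate 2. In BMAL1 against CON, 0 of 67 were called by DESeq2 or by edgeR, against 0.166% higher and 0.324% lower over all genes, and 7 had an unadjusted p under 0.05 with each tool. CHREBP against CON had 2 called higher and 0 lower (2.65% and 0.771% of all genes), with 6 below 0 at an unadjusted p under 0.05 and 0 called lower by edgeR. These were *Prdx5*, a mitochondrial and peroxisomal peroxiredoxin (log2 fold change 0.19, *Padj* = 0.0480, a call lost without CON replicate 1, 2 or 4 or CHREBP replicate 1), and *Mafk*, a small MAF protein that pairs with NRF2 on AREs. *Mafk* means were 216 ± 82.5 (CON), 245 ± 16.1 (BMAL1), 443 ± 134 (CHREBP) and 564 ± 92.5 (BOTH), each with SD and n = 4, which gave log2 fold changes of 1.03 (SE 0.26, *Padj* = 0.00465) in CHREBP and 1.38 (SE 0.26, *Padj* = 6.71e-06) in BOTH. Neither comparison had overlap between groups. With all 24 libraries in the fit, CHREBP against CON had 3 genes of the wider list called higher and 1 lower.

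In BOTH against CON, 6 of 67 genes of the wider list were called higher and 5 lower, against 5.99% and 3.75% of all genes. The largest after *Mafk* were the glutathione-degrading *Chac1* (log2 fold change 0.60, *Padj* = 0.000476), the transferase *Gstm5* (-0.57, *Padj* = 0.00148) and *Gpx3* (-0.54, *Padj* = 0.0285, not called without BOTH replicate 1 or 2). BOTH against BMAL1 had 6 higher and 6 lower, against 6.35% and 4.08% of all genes, led by *Mafk* (1.20, *Padj* = 0.000149), *Chac1* (0.67, *Padj* = 7.37e-05), *Akr1b3* (0.54, *Padj* = 0.0731, not called without BMAL1 replicate 1, 2 or 3 or BOTH replicate 2 or 3) and the NADPH-producing *Idh1* (-0.44, *Padj* = 9.35e-05). *Slc3a2*, the heavy subunit of the cystine transporter, was the 1 gene called, as higher, in BOTH against CHREBP (0.19, *Padj* = 0.0780), where 0.843% of all genes were called higher and 0.151% lower. It was also the 1 gene called in the interaction (0.25, *Padj* = 0.0747), against 1.20% and 0.267% of all genes, so that 1 of 67 is near the background in both. edgeR, the replicate block and the fit of all 24 libraries each called 0 genes of the list in either comparison. With edgeR, 8 and 10 genes had an unadjusted p under 0.05, with the block 6 and 10, and with all libraries 9 and 10.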

How the data were processed

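RNA of AML-12 cells was measured in 24 libraries by BRB-seq, which barcodes bulk samples, pools them and reads mRNAs at their 3′ ends. The authors demultiplexed the reads with BRB-seq tools, aligned them to mm10 with STAR and counted them with HTSeq, with featureCounts also named. Versions, annotation release, strand use and treatment of molecular identifiers are not given in the sources used here. The deposited table holds raw counts, as whole numbers for each gene and library, without normalization. The 5 summary lines of the table were left out of library totals and tests.

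Groups came from the sample labels. DESeq2 1.42.0 in R 4.3.3, the tool of the study's methods, was run on genes whose counts summed to 25 or more in the libraries of a fit. PAL with BSA, and CON with PAL, were fitted as 8 libraries each, and the esiRNA groups as 16 libraries. Wald tests gave the comparisons and the interaction, and a likelihood ratio test covered the 4 esiRNA groups. *Padj* is the Benjamini-Hochberg value over all genes tested, and genes under 0.1 are called. Genes that independent filtering left without a *Padj* count as not called. Overlap between groups was examined for the listed genes only, so no share over all genes stands beside it. Total gene counts of 5399700 to 11237474 per library set the precision, and floors cover counting error only. The fits were checked on simulated counts.

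The members and lists were chosen with earlier results of these data known, and no test was made over a list. Genes described library by library were the regulators and the 12 with the largest log2 fold change among their calls and a mean of at least 50. *Gclm*, *Gsr*, *Osgin1* and *Gsta1* were added after their values were seen, and *Nqo1* and *Hmox1* were given in raw counts because they lay near the floor. For other pathway genes, up to 4 per comparison were named by the same measure. Alternatives were edgeR 4.0.16, TMM factors, no filter on low counts, the replicate number as a block, all 24 libraries in the fit, and leaving out each library. Replicate numbers did not pair the libraries. The correlation of deviations of same-numbered libraries had a mean of -0.07 to 0.11 per comparison, and not every pair exceeded 0.1.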

Additional observations from a re-analysis of the deposited data

Results flagged for a closer look

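For 13 genes described library by library, each group of 4 libraries was searched for 1 library far from the rest, measured by the gap of the extreme library to its nearest neighbour divided by the range of the group. In 78 groups, 5 ratios exceeded the 95% critical value of Dixon's test, which chance exceeds in about 1 of 20 groups. *Gsta4* was at 790 normalized counts in CON replicate 1 and at 638 to 651 in the other CON libraries (ratio 0.910). *Keap1* was at 451.5 in PAL replicate 1 and at 361 to 370.1 in the others (ratio 0.896). *Sod2* was at 1198 in BSA replicate 1 and at 1059 to 1066 in the others (ratio 0.949). *Cat* was at 3011 in BMAL1 replicate 4 and at 3333 to 3390 in the others (ratio 0.848). *Ftl1* was at 17294 in BSA replicate 3 and at 26895 to 28235 in the others (ratio 0.878). Leaving out the library in question ended the call of *Gsta4* in CHREBP against CON, and the *Cat* value in BMAL1 against CON was -0.06 (*Padj* = 0.931 with DESeq2) with it and -0.02 (*Padj* = 0.997) without it. The effect of *Bmal1* esiRNA on *Mgst2* differed with and without *Chrebp* esiRNA, with an interaction of -0.79 on the log2 scale (DESeq2 *Padj* = 0.0169), a contrast from which total esiRNA dose cannot be told apart.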

How the results depend on the processing

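Of 38 calls among the 33 genes, 24 stayed called in the same direction under every alternative and 0 changed direction. Calls of the wider list are not in this count. Of the 38, the number that stayed called was 37 with TMM factors, 37 without the filter on low counts, 34 with edgeR and 33 with all 24 libraries in the fit. Calls in PAL against BSA numbered 13 to 14 under all alternatives, against 14. With all 24 libraries, CON against PAL had 3 calls in place of 6 and BMAL1 against CON had 2 in place of 1, the other being *Mgst1*. edgeR called 0 genes in BOTH against CHREBP in place of 1, with 5 at an unadjusted p under 0.05. With 1 library left out, calls ranged from 4 to 7 in CON against PAL and from 1 to 3 in CHREBP against CON. They ranged from 3 to 9 in BOTH against CON, 0 to 2 in BOTH against CHREBP and 4 to 8 in BOTH against BMAL1. In BMAL1 against CON the range was 0 to 1, where 0 marks the fit without a *Padj* for *Mgst2*. It was 1 to 2 in the interaction and 6 to 10 in the likelihood ratio test. The cause of these ranges was not tested. *Gsta1* held between 0 and 21 counts per library, which limits it to large differences.

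In the fit with a replicate block, calls numbered 13 in PAL against BSA, 4 in CON against PAL, 1 in BMAL1 against CON, 4 in CHREBP against CON, 5 in BOTH against CON, 1 in BOTH against CHREBP, 7 in BOTH against BMAL1, 1 in the interaction and 7 in the likelihood ratio test. Of the named calls, 35 of 38 stayed with the block, which ended those of *Mgst2* in PAL against BSA and of *Gclm* and *Ftl1* in CON against PAL.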
